A study of Mus musculus with 24 samples.

Results

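Notch signalling passes between touching cells, and the 10 genes described here were 4 receptors (Notch1, Notch2, Notch3, Notch4), 4 ligands (Jag1, Jag2, Dll1, Dll4) and 2 target genes (Hes5, Hey1), picked by name from 36096 genes in the deposited mRNA table. They were chosen with their difference between the genotypes of this study already known, so their changes are given as a description, with no test. All 10 had enough signal to enter the fit over all genes. RNA came from the medial frontal cortex of C57BL/6J mice at postnatal day 28. The groups were Dnmt3l;Emx1-cre males (OE-M), Dnmt3l;Emx1-cre females (OE-F), Emx1-cre males (CON-M) and Emx1-cre females (CON-F), with 3 mRNA libraries each. The Dnmt3l animals were born from a cross between a conditional knock-in of Dnmt3l and the Emx1-cre line, and every control carried Emx1-cre as well. As background, Emx1-driven Cre recombines in the lineage of the dorsal forebrain, which gives excitatory cortical neurons, astrocytes and oligodendrocyte lineage cells, and it largely spares interneurons, microglia and blood vessels. The study describes each genotype as 3 male and 3 female samples and does not say whether a sample is 1 mouse or a pool, so p-values describe the spread between these libraries, which may be technical.

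A ligand on one cell pulls on a receptor on its neighbour, the receptor is cut by ADAM proteases and then by gamma-secretase, and the freed intracellular part joins the DNA-binding protein RBPJ and Mastermind proteins to switch on genes of the Hes and Hey families. In the brain Notch1 and Notch2 keep neural stem cells undifferentiated and are found in astrocytes, Notch3 is a receptor of pericytes and vascular smooth muscle, and Notch4 is a receptor of endothelium. Jag1 is a ligand of vessels and glia, and Dll4 is the ligand of endothelial tip cells and arteries. Hes5 and Hey1 encode transcriptional repressors that block neuronal differentiation, and Hey1 also acts in arteries.

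Library totals ran from 22144970 to 26842726 counts in Dnmt3l and from 27074837 to 32100277 counts in control. Dnmt3l RNA stood at 20.6 to 45.7 CPM in the 6 Dnmt3l libraries, highest in OE-F1, and at 0 to 0.102 CPM in the 6 control libraries. CPM is the count of a gene scaled to a common library size after TMM normalization. Markers of excitatory cortical neurons summed to 5985 to 7188 CPM in Dnmt3l and to 4534 to 5513 CPM in control, and all 9 were measured. Their median log2 change was -0.30 (from -1.57 to 0.47), so the sum does not follow most of its members. Liver genes (6 measured) summed to 62.0 to 80.3 CPM in CON-M3, CON-F1 and CON-F2 and to 0.229 to 1.68 CPM in the other 9 libraries. OE-F1 stood apart from the other 5 Dnmt3l libraries for most of the genes below, and the change over both sexes of each of the 10 genes is given with and without it. In bulk tissue, fewer cells of a type and less RNA per cell cannot be told apart.

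The stretches upstream of 3 of these genes are shown for a known direct target, with its RBPJ motifs, and for the receptors that changed most and least, with their CpG (a C followed by a G). As background, CpG is the main site of DNA methylation, and the Dnmt3l protein is a cofactor of de novo DNA methyltransferases. They come from RefSeq (GRCm38.p6), which gave 10 promoters of 300 bases (250 before the start site, 50 after it) for 9 of the 10 genes, Hey1 being the exception. Each is printed 5′ to 3′ on the gene's strand and ends short of the annotated start site. In Hes5 (chr4:154960673-154960872, plus strand) the capitals mark the RBPJ motif GTGGGAA on either strand. In Notch4 (chr17:34564045-34564244, plus strand) and Notch2 (chr3:98013288-98013487, plus strand) the capitals mark CpG.
Hes5: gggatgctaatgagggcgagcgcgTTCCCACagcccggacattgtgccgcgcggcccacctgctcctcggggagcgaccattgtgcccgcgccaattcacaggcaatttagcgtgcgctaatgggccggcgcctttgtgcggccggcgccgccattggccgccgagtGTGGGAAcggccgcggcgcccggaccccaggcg
Notch4: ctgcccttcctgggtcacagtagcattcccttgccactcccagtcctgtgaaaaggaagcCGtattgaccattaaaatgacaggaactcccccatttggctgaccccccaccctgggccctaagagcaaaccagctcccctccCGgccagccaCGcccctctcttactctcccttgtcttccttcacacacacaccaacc
Notch2: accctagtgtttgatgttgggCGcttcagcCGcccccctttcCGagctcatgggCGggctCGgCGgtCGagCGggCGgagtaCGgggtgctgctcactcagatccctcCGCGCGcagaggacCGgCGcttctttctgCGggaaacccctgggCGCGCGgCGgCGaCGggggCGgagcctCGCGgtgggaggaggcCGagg
Hes5 held the motif on both strands, starting 226 and 83 bases before the start site. Of the 9 genes with a promoter it was the 1 that held GTGGGAA, which 6.38% of 32851 promoters of that length hold. Its 6-letter core TGGGAA, which lies inside GTGGGAA and occurs in 25.6% of promoters, was found inside the same matches in Hes5 and in none of the other 8 genes. In the full 300 bases Notch4 had 5 CpG, more than 38% of all promoters have, against 41 in Notch2 and 41 in Hes5 (more than 96.5%). The median over all promoters was 7. Among the other receptors, Notch1 had 23 CpG and Notch3 had 25. Jag2 had the most of the 10 promoters, with 63 CpG. Whether the number of CpG goes with the change of a gene was not tested. These matches are descriptions of the letters, and methylation was not among the measurements.

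Notch1, the receptor with the most counts, stood far above its control level in 5 of the 6 Dnmt3l libraries (ENSMUSG00000026923, chr2:26457903-26516663, minus strand, GRCm38). Its levels were 135, 134 and 158 CPM in OE-M and 68.8, 138 and 140 CPM in OE-F, against 61.9, 71.1 and 67.2 CPM in CON-M and 61.1, 63.6 and 62.0 CPM in CON-F. The low library was OE-F1, inside the range of the controls, and the other 5 lay above every control. The log2 change averaged over the sexes was 0.99 ± 0.14 (SE of the edgeR fit over all genes, n = 6 against 6), a fold of 1.99, and 1.11 ± 0.05 without OE-F1.

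Notch4 showed the largest change of the 10 genes (ENSMUSG00000015468, chr17:34564268-34588503, plus strand). Its levels were 28.5, 28.8 and 28.7 CPM in OE-M and 9.47, 22.7 and 21.7 CPM in OE-F, against 10.2, 9.91 and 10 CPM in CON-M and 7.91, 6.85 and 9.57 CPM in CON-F. The males of each genotype were tightly grouped, and OE-F1 again lay among the controls. The log2 change was 1.33 ± 0.17, a fold of 2.51, with 1.52 ± 0.24 in males and 1.14 ± 0.25 in females. Without OE-F1 the change was 1.47 ± 0.08.

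Notch3, the receptor of mural cells (ENSMUSG00000038146, chr17:32120820-32166852, minus strand), had 52.0, 52.9 and 55.0 CPM in OE-M and 19.6, 36.8 and 44.4 CPM in OE-F, against 20.6, 27.6 and 26 CPM in CON-M and 24, 25.1 and 17.2 CPM in CON-F. The OE-M libraries lay above the other 2 high OE-F libraries, and OE-F1 lay within the control range. The log2 change was 0.85 ± 0.17 over both sexes and 0.97 ± 0.10 without OE-F1. Notch2 (ENSMUSG00000027878, chr3:98013527-98150361, plus strand) changed least of the receptors, with 74.8, 78.8 and 82.7 CPM in OE-M and 49.9, 83.3 and 89.6 CPM in OE-F, against 50.4, 57.9 and 55.6 CPM in CON-M and 43.5, 50.8 and 56.2 CPM in CON-F. Its log2 change was 0.55 ± 0.12, and 0.64 ± 0.07 without OE-F1.

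**Figure D1:**
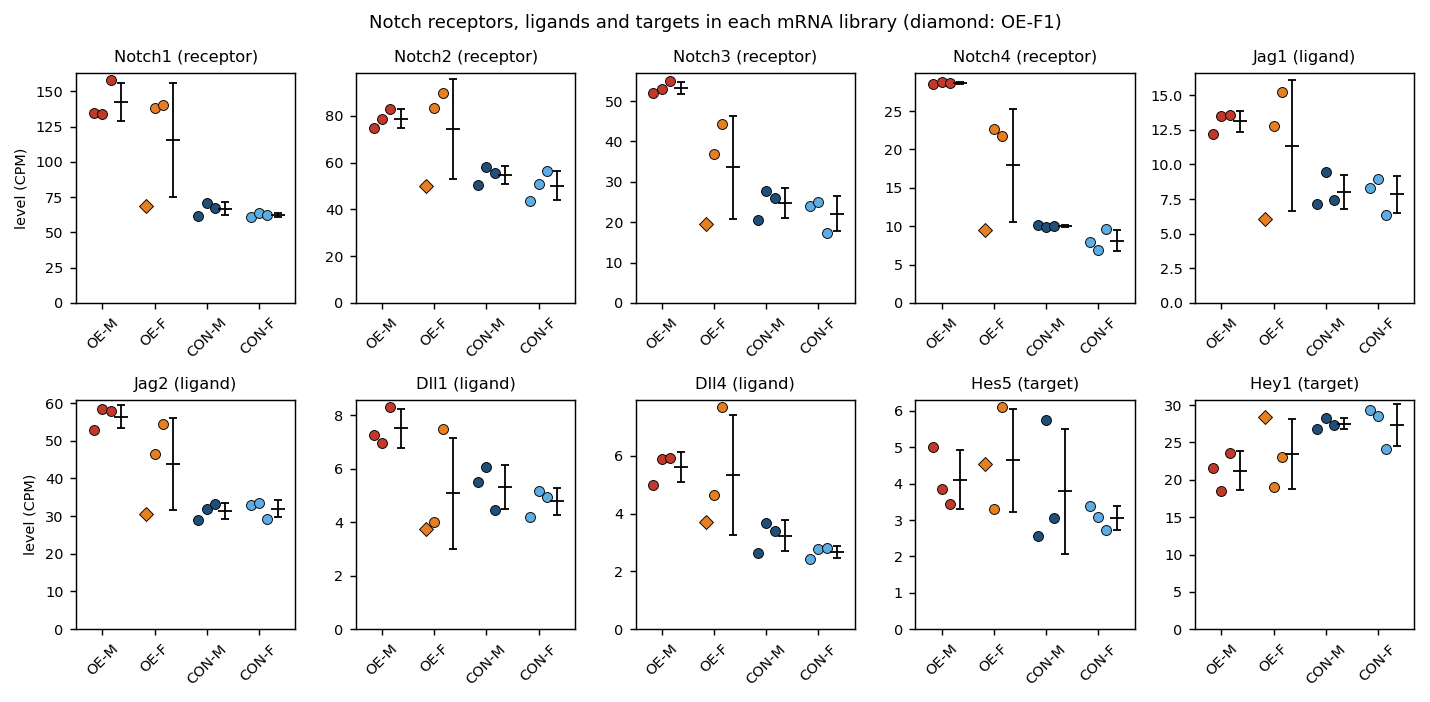
Level in CPM (vertical axes, from 0) of each of the 10 genes in the 12 mRNA libraries, by group; points are libraries, the diamond is OE-F1, and the bar beside each group is its mean ± SD (n = 3). For the 4 receptors, Jag1 and Jag2 the OE-F1 point sits with the controls or, for Jag1, just below them, and the other 5 Dnmt3l points sit above every control, as for Notch4 at 21.7 to 28.8 CPM against 6.85 to 10.2 CPM.

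Among the ligands, Dll4 was the gene for which all 6 Dnmt3l libraries lay above all 6 controls (ENSMUSG00000027314, chr2:119325784-119335962, plus strand). Its levels were low, with 5.01, 5.88 and 5.94 CPM in OE-M and 3.72, 4.65 and 7.69 CPM in OE-F, against 2.63, 3.66 and 3.41 CPM in CON-M and 2.43, 2.76 and 2.82 CPM in CON-F. OE-F1 was the lowest Dnmt3l library and CON-M2 the highest control, and the gap between them was narrow. On the FPKM scale of the deposited table the genotypes overlapped, with 2.18 in CON-M3 against 1.07 to 3.06 in Dnmt3l. The log2 change was 0.90 ± 0.18, and 0.98 ± 0.16 without OE-F1. The counts behind these levels were 96 to 180 in Dnmt3l and 73 to 113 in control.

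Jag2 (ENSMUSG00000002799, chr12:112907819-112929776, minus strand) had 52.8, 58.4 and 57.8 CPM in OE-M and 30.6, 46.4 and 54.5 CPM in OE-F, against 28.9, 32 and 33.1 CPM in CON-M and 33, 33.5 and 29.3 CPM in CON-F. Jag1 (ENSMUSG00000027276, chr2:137081456-137116644, minus strand) had 12.2, 13.5 and 13.6 CPM in OE-M and 6.09, 12.8 and 15.2 CPM in OE-F, against 7.12, 9.45 and 7.46 CPM in CON-M and 8.28, 8.92 and 6.35 CPM in CON-F. For both Jagged ligands the Dnmt3l libraries other than OE-F1 lay above every control in CPM, and for Jag1 the OE-F1 library lay below every control. On the FPKM scale OE-F2 and CON-M2 both stood at 19.6 for Jag2, and for Jag1 OE-F1 lay within the control range. The log2 changes were 0.65 ± 0.11 for Jag2 and 0.62 ± 0.18 for Jag1, and 0.74 ± 0.06 and 0.75 ± 0.11 in the same order without OE-F1.

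Dll1, a Delta ligand of neural progenitors (ENSMUSG00000014773, chr17:15367354-15376872, minus strand), had 7.25, 6.95 and 8.32 CPM in OE-M and 3.76, 4.02 and 7.48 CPM in OE-F, against 5.5, 6.05 and 4.44 CPM in CON-M and 4.19, 5.18 and 4.96 CPM in CON-F. All 3 OE-M libraries and OE-F3 lay above the controls, while OE-F1 and OE-F2 lay below them. The log2 change of 0.29 ± 0.17 was the smallest of the ligands, and it was 0.36 ± 0.15 without OE-F1, 0.10 without OE-F3 and 0.08 with limma on log2(FPKM + 0.1).

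The 2 target genes moved in opposite directions and by less than most receptors. Hes5 (ENSMUSG00000048001, chr4:154960923-154962371, plus strand) had 5.01, 3.86 and 3.45 CPM in OE-M and 4.54, 3.29 and 6.11 CPM in OE-F, against 2.56, 5.76 and 3.05 CPM in CON-M and 3.39, 3.08 and 2.72 CPM in CON-F. The genotypes overlapped, since CON-M2 was higher than 5 of the Dnmt3l libraries. The log2 change was 0.36 ± 0.22, on counts of 73 to 143 in Dnmt3l and 74 to 176 in control, and it was 0.35 ± 0.22 without OE-F1, 0.23 without CON-M1 and 0.56 without CON-M2. Hey1 (ENSMUSG00000040289, chr3:8663359-8667256, minus strand) had 21.6, 18.5 and 23.6 CPM in OE-M and 28.4, 19.0 and 23.0 CPM in OE-F, against 26.8, 28.3 and 27.4 CPM in CON-M and 29.4, 28.5 and 24.1 CPM in CON-F. It was the gene of the 10 with a lower mean in Dnmt3l: 5 Dnmt3l libraries lay below every control in CPM, and OE-F1 lay among the controls. On the FPKM scale CON-M3, at 13.1, lay below OE-M1 at 13.6 and OE-F3 at 13.8. The log2 change was -0.30 ± 0.10, and -0.39 ± 0.08 without OE-F1.

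Counted over the set, 9 of the 10 genes had a log2 change above 0 (51.4% of the 15786 genes tested did), with a median of 0.64 against 0.016 over all tested genes. Dll4 was the 1 gene with every Dnmt3l library higher than every control (5.47% of all genes), and for no gene did all 6 lie below (6.83%). Without OE-F1 the remaining 5 lay above all controls for 7 genes (19.4% of all genes) and below them for 1, Hey1 (23.7%). In males the 3 OE-M libraries lay above the 3 CON-M libraries for 8 genes (30.1%) and below for 1 (31.7%). In females OE-F lay above CON-F for 2, Notch1 and Dll4 (12%). These counts are in CPM. On the FPKM scale Dll4 overlapped over both sexes, as did Hey1 without OE-F1. Since the genes were picked with this difference known, nothing is read from these counts. Over all genes 51.5% passed an adjusted p under 0.05 in edgeR's quasi-likelihood test, 3976 higher and 4160 lower (48.9% of calls higher). By limma on the FPKM scale 2329 genes were higher and 4282 lower, so that 35.2% of calls were higher, and the median log2 change was -0.058.

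**Figure D2:**
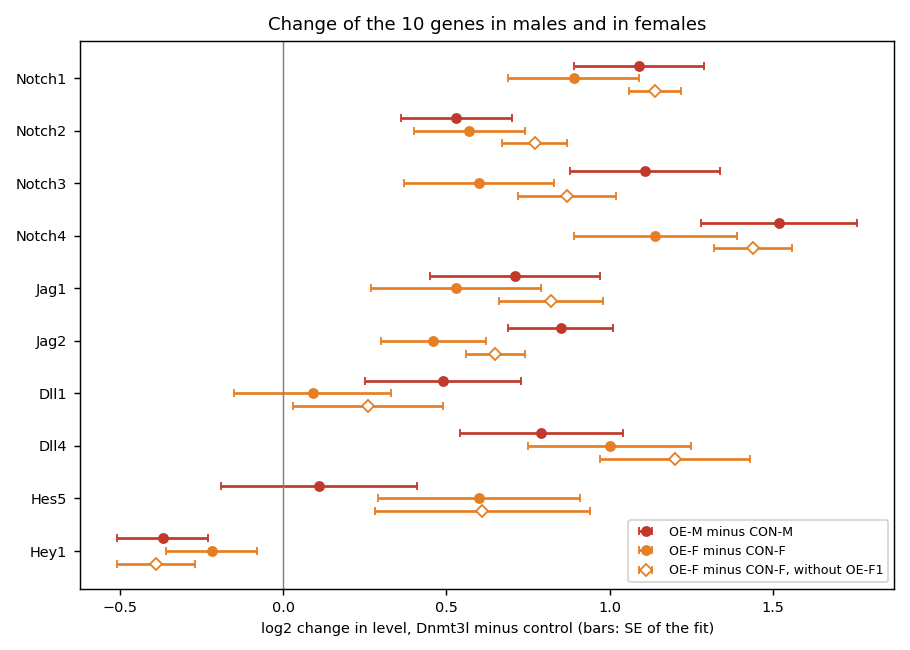
Log2 change of the level, Dnmt3l minus control (horizontal axis, bars are SE), of the 10 genes in males, in females, and in females without OE-F1. Without OE-F1 the female changes of the 4 receptors lie between 0.77 and 1.44, and Hey1 lies below 0 in all 3 estimates.

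The difference between the sexes was not part of the choice of genes and was tested. The signed difference, male change minus female change, was above 0 for 6 genes and below 0 for 4. Hey1 was among the 4, at -0.15 ± 0.20 with all libraries. None of the 10 differences passed edgeR's quasi-likelihood test (adjusted p = 0.691 to 0.97). Of all 15786 genes 0% were called by edgeR, with 1120 (7.09%) at an unadjusted p under 0.05, and DESeq2 called 5. None of the 10 had an unadjusted p under 0.05 in edgeR, DESeq2 or limma. Notch3 had a male minus female difference of 0.50 ± 0.33 on the log2 scale, and 0.22 ± 0.20 without OE-F1. Jag2 had 0.39 ± 0.23, and 0.17 ± 0.13 without OE-F1. The sign turned without OE-F1 for Notch1 (-0.08 ± 0.11, against 0.20 ± 0.28 with it) and for Jag1 (-0.14 ± 0.22, against 0.18 ± 0.36 with it). Without OE-F1 Hey1 had -0.00 ± 0.16, and Notch2 had -0.27 ± 0.13, against -0.04 ± 0.24 with it. For Hes5 the difference was -0.49 ± 0.43, with a change of 0.11 ± 0.30 in males and 0.60 ± 0.31 in females. A p above the threshold does not show that the sexes responded alike, and the SE of these differences reached 0.43.

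In controls alone, none of the receptors, ligands or targets passed the same test between females and males (adjusted p = 1 for all 10, unadjusted p from 0.24). Over all genes edgeR called 4 (0.0253%) and DESeq2 called 6. None of the 10 had an unadjusted p under 0.05 by edgeR, DESeq2 or limma. Notch4 differed most among the receptors, at -0.30 ± 0.25 for CON-F minus CON-M, and Hey1 differed least, at -0.01 ± 0.14.

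Levels can be set against each other between genes per transcript length, on the FPKM scale of the deposited table, summed over a gene's transcripts. In Dnmt3l, Notch1 came first with 27.6 ± 6.82 FPKM, then Jag2 with 22.9 ± 6.49, Hey1 with 12.4 ± 2.20 and Notch4 with 8.45 ± 3.62 (SD, n = 6). In control, Hey1 averaged 17.1 ± 2.20, Jag2 16.1 ± 2.08 and Notch1 14.0 ± 4.59 FPKM (SD, n = 6), and these 3 overlapped. Below them in control stood Hes5 at 5.6 ± 1.68 and Notch2 at 5.41 ± 0.618, then Notch4 at 3.24 ± 0.833, Notch3 at 3.17 ± 0.526, Dll1 at 3.13 ± 0.921, Jag1 at 2.21 ± 0.461 and Dll4 at 1.18 ± 0.522. The one gap between neighbours in that order without overlap of libraries was that between Notch1 and Hes5. A sum of FPKM weights short transcripts heavily. As CPM per kilobase of the main transcript, Notch4 stood at 3.54 ± 1.14 in Dnmt3l and at 1.38 ± 0.207 in control, sixth and ninth of the 10 genes, while Hey1 stayed first in control at 11.3 ± 0.76.

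Nearly all of the signal of each gene came from 1 transcript, which carried 84.6% (Dll1) to 99.9% (Notch3) of its counts. The share of a transcript within its gene was not used to choose the genes. Of 5 transcripts of Notch4, Jag1, Jag2 and Dll1 that could be tested (limma on the log2 odds of the share), none was called, with adjusted p = 0.274 to 0.97 and none with an unadjusted p under 0.05, against 6.32% of 22453 transcripts called. The main Notch4 transcript, ENSMUST00000015612 of 6591 bases, made up 87.9% ± 2.49 of Notch4 counts in Dnmt3l and 91.5% ± 3.77 in control (SD, n = 6). The shorter Jag1 transcript, ENSMUST00000133640 of 1463 bases, made up 15.6% ± 2.30 in Dnmt3l and 13.1% ± 3.85 in control. The main Jag2 transcript, ENSMUST00000075827, made up 87.2% ± 2.46 in Dnmt3l and 87.0% ± 2.63 in control, and that of Dll1, ENSMUST00000014917, 84.5% ± 10.1 in Dnmt3l and 83.0% ± 6.09 in control. Shares of all 4 genes overlapped between the genotypes. The count of transcripts called over all genes is itself unstable, from 0 (without CON-M1, without CON-M3 or without CON-F3) to 3104 (without OE-F1), and it was 1 with a replicate block.

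Beyond the 10 genes, 61 genes of the pathway were listed by role and 59 were tested in the Dnmt3l against control contrast. Of these, 23 were higher and 10 lower (39% and 16.9%, against 25.2% and 26.4% of all genes), with a median log2 change of 0.17. Genes that modify, cut or move receptors and ligands were mostly among the higher ones, and genes of the nuclear step were called in both directions. With limma on log2 FPKM 12 of 59 were higher (20.3%, against 14.8% of all genes). Without the 3 controls that held liver transcripts 9 of 59 were higher (15.3%), close to the 12.6% of all genes in that setting. The number lower was 4 without those controls (6.78%, against 15.8% of all genes), 5 without OE-M2, 6 without OE-M3 or without OE-F2, and 16 without OE-F1. This list, like the 10 genes, was drawn up with results of these data known.

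The enzymes that add sugars to the Notch ectodomain gave 5 higher and 0 lower of 6 (median 0.51). Over all genes tested 25.2% were higher and 26.4% lower. Lfng, the lunatic fringe glycosyltransferase that favours Delta over Jagged ligands, averaged 20.2 ± 7.07 CPM in Dnmt3l and 9.83 ± 2.09 CPM in control (SD, n = 6), a log2 change of 1.03 ± 0.21 (edgeR adjusted p = 0.00174). Its 5 Dnmt3l libraries other than OE-F1 lay above every control. Eogt, the O-GlcNAc transferase of EGF repeats, had 50.7 ± 14.4 CPM in Dnmt3l and 28.2 ± 1.55 CPM in control (log2 change 0.81 ± 0.11, edgeR adjusted p = 0.000293), and was not called with limma on log2 FPKM (0.39). Rfng, radical fringe, rose by 0.45 ± 0.10 (edgeR adjusted p = 0.00259).

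Of the 10 cleavage genes 7 were higher and 0 lower (median 0.33), against 25.2% higher and 26.4% lower over all genes tested. Furin, which cuts the receptor during its maturation, had 61.9 ± 8.27 CPM in Dnmt3l and 40.0 ± 3.50 CPM in control, with all 6 Dnmt3l libraries above the controls (log2 change 0.63 ± 0.09, edgeR adjusted p = 0.000387). Adam17, a protease that sheds ectodomains, changed by 0.61 ± 0.13 (edgeR adjusted p = 0.00206), but by 0.06 with limma on log2 FPKM, where it was not called. Ncstn, the nicastrin subunit of gamma-secretase, changed by 0.48 ± 0.09 (edgeR adjusted p = 0.00117) and was called under each of the 18 alternatives. Without the 3 controls with liver transcripts, fewer libraries entered the fit and Adam17 was not called, at a change of 0.56. Calls were lost there too, at changes close to the full ones, for Dner (0.45), Mib2 (0.17), Neurl1a (0.24), Neurl1b (0.30), Maml3 (0.32), Hes1 (-0.40) and Efnb2 (0.18), and for Mib1 at a larger change (-0.30).

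Among the 4 ubiquitin ligases that drive ligand endocytosis, 3 were higher and 1 lower (median 0.25). Mib1, the main ligase for Notch ligands, had 262 ± 28.3 CPM in Dnmt3l and 303 ± 14.3 CPM in control (log2 change -0.21 ± 0.07, edgeR adjusted p = 0.0278). That call was lost without OE-M1, OE-M2, OE-M3, OE-F2, OE-F3 or CON-F3. Neurl1a changed by 0.30 ± 0.06, Neurl1b by 0.31 ± 0.07 and Mib2 by 0.20 ± 0.06 (edgeR adjusted p = 0.00174, 0.00325 and 0.00995 in that order). Of 4 other ligands and ligand-like genes 2 were higher and none lower: Dner, a neuronal ligand, by 0.49 ± 0.12 and Dlk2 by 0.33 ± 0.10 (edgeR adjusted p = 0.00569 and 0.0119). Dlk1 had a log2 change of 0.72 ± 0.36 and Dll3 of 0.28 ± 0.22 and neither passed (edgeR adjusted p = 0.107 and 0.306), with Dlk1 called when OE-F1 was left out (0.93). Of these 8 genes 5 were called higher and 1 lower, against 25.2% and 26.4% of all genes tested. Without the 3 controls with liver transcripts Dlk2 kept its call, and Dner, Mib2, Neurl1a and Neurl1b did not.

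In the nuclear step the counts were 1 higher and 2 lower of 9 for RBPJ and its coactivators (median 0.01) and 2 higher and 3 lower of 10 for corepressors (median 0.00). The shares over all genes tested were 25.2% higher and 26.4% lower. Snw1, the SKIP cofactor, had 23.3 ± 5.30 CPM in Dnmt3l and 32.3 ± 1.40 CPM in control (log2 change -0.48 ± 0.11, edgeR adjusted p = 0.00296), Kat2a changed by -0.21 ± 0.07 (adjusted p = 0.0245, lost without OE-M2 and, at -0.21, without the 3 controls with liver transcripts) and Maml3, a Mastermind coactivator, by 0.36 ± 0.11 (adjusted p = 0.0112), all in edgeR. Rbpj, named here after its value was seen because it is the factor all receptors share, had a log2 change of -0.14 and was not called (edgeR adjusted p = 0.0968). Of the corepressors, Tle2 of the Groucho family had 41.5 ± 8.88 CPM in Dnmt3l and 24.3 ± 2.59 CPM in control (log2 change 0.75 ± 0.10, edgeR adjusted p = 0.000264). Every Dnmt3l library was higher than every control for Tle2. Cir1, which binds RBPJ, changed by -0.51 ± 0.10 (edgeR adjusted p = 0.0016).

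Of 8 genes of receptor turnover and inhibition 1 was higher and 2 lower (median -0.14), Dtx3 by 0.21 ± 0.07 and Numbl and Itch each by -0.22 ± 0.07 (edgeR adjusted p = 0.0153, 0.0191 and 0.0192 in that order). Itch is a ubiquitin ligase of Notch, and Numbl a relative of the Notch inhibitor Numb. The call of Dtx3 was lost without CON-M1 or CON-F1, that of Numbl without OE-M3 and that of Itch without OE-M2, and Dtx3 (0.24) and Numbl (-0.23) were also not called without the 3 controls with liver transcripts. With limma on log2 FPKM the change of Numbl was -0.57, and that of Dtx3 was 0.12, not called. Of 8 other target genes tested 2 were higher and 2 lower (median 0.10). Beside both of these groups, 25.2% of all genes tested were higher and 26.4% lower. Hes1, the repressor that mirrors Hes5 in progenitors, had 3.37 ± 1.19 CPM in Dnmt3l and 4.62 ± 0.482 CPM in control (log2 change -0.48 ± 0.17, edgeR adjusted p = 0.0287), a call lost without OE-M2, OE-F2, OE-F3, CON-M1 or CON-F1. Fabp7, the lipid-binding protein of radial glia and astrocytes, had 18.5 ± 5.23 CPM in Dnmt3l and 10.9 ± 1.75 CPM in control (log2 change 0.77 ± 0.19, edgeR adjusted p = 0.0047). Efnb2, the ephrin of arteries, changed by 0.21 ± 0.08 (edgeR adjusted p = 0.0484), and leaving out any library other than OE-F1 ended its call.

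**Figure D3:**
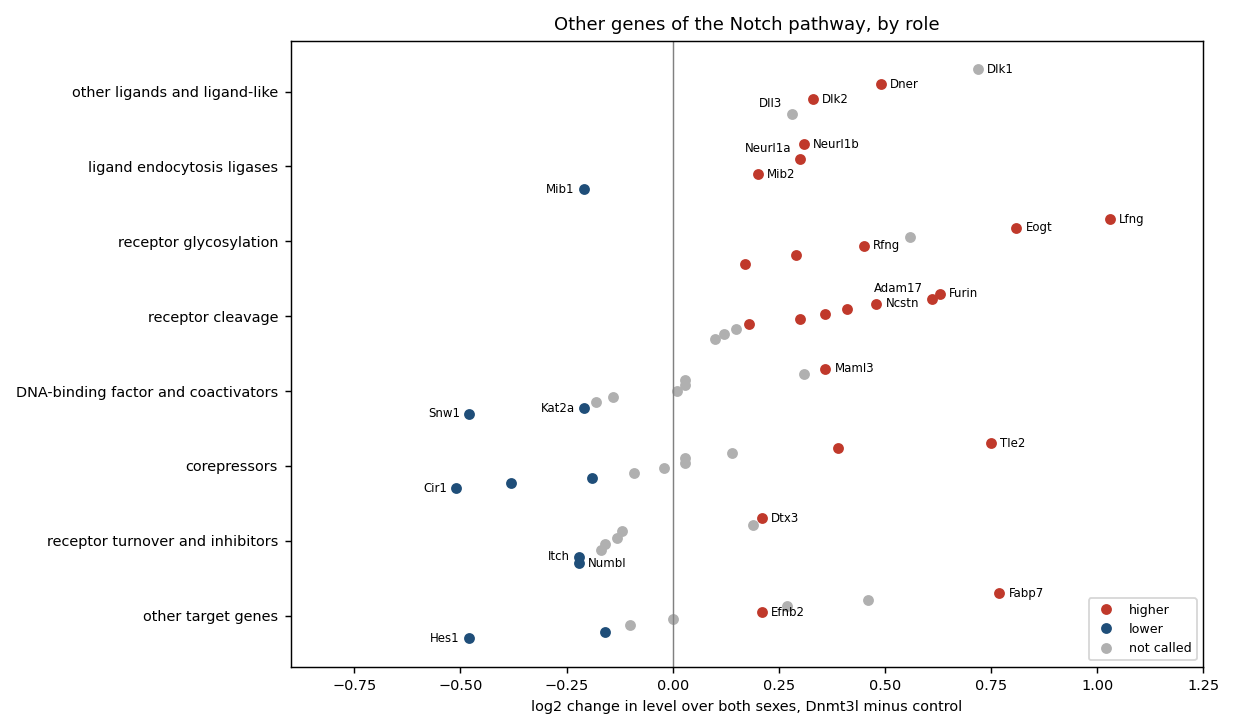
Log2 change of the level over both sexes, Dnmt3l minus control (horizontal axis), of 59 other pathway genes in 8 role groups (vertical axis). Red points were higher and dark blue points lower at an adjusted p under 0.05 in edgeR, and grey points were not called. The genes described in the text, other than Rbpj, are named. Lfng at 1.03 and Eogt at 0.81 lie farthest to the right, and Cir1 at -0.51 farthest to the left.

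Markers of vessel and glial cells differed between the genotypes in the same libraries. All 15 endothelial markers tested were higher in Dnmt3l (median log2 change 0.82), as were 7 of 9 pericyte and smooth muscle markers (0.63), 12 of 13 astrocyte markers (0.59, with 1 lower), 9 of 10 microglia markers (0.74) and 5 of 7 oligodendrocyte precursor markers (0.70). Oligodendrocyte markers gave 5 higher and 1 lower of 7 (0.53), and their sums overlapped between the genotypes. OE-F1 had the lowest oligodendrocyte sum, 3466 CPM, below every control (3590 to 6639 CPM). Interneuron markers gave 2 higher and 4 lower of 7 (-0.33), excitatory neuron markers 2 higher and 3 lower of 9 (-0.30), and red blood cell markers 4 lower of 5 (-0.99), all by edgeR at an adjusted p under 0.05, which 25.2% of all genes passed as higher and 26.4% as lower. No marker of these lists was at 0 in all libraries. Endothelial markers summed to 804 to 1009 CPM in 5 Dnmt3l libraries, to 452 CPM in OE-F1 and to 412 to 470 CPM in control. Astrocyte markers summed to 13147 to 16088 CPM in those 5 libraries, 8646 CPM in OE-F1 and 7981 to 8456 CPM in control. OE-F1 was within the control range for the endothelial sum and just above it for the astrocyte sum, and the other 5 Dnmt3l libraries were above every control for both.

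Set against the summed markers of a cell type it is known from, Notch4 had 2.67 to 3.18 CPM per 100 CPM of endothelial markers in the 5 Dnmt3l libraries, 2.09 in OE-F1 and 1.60 to 2.32 in control. Dll4 had 0.558 to 0.947 per 100 CPM of the same markers in those 5, 0.824 in OE-F1 and 0.556 to 0.779 in control. On this scale too Notch4 stood above every control in those 5 libraries, with OE-F1 within the controls, and Dll4 overlapped them. Notch3 had 9.44 to 12.6 CPM per 100 CPM of pericyte and smooth muscle markers, 8.48 in OE-F1 and 7.68 to 10.7 in control. Notch1 had 0.833 to 1.05 CPM per 100 CPM of astrocyte markers, 0.796 in OE-F1 and 0.722 to 0.891 in control, and Notch2 had 0.489 to 0.633, 0.577 in OE-F1 and 0.514 to 0.726 in control. On the astrocyte scale Jag1 had 0.0795 to 0.104, 0.0705 in OE-F1 and 0.0759 to 0.118 in control. Hes5 had 0.0224 to 0.0419 there, 0.0525 in OE-F1 and 0.0308 to 0.0721 in control. Per 100 CPM of endothelial markers Notch1 had 14 to 17.2 CPM, 15.2 in OE-F1 and 14 to 15.1 in control. Those ranges overlapped between the genotypes. The part that cell type makeup plays in the changes of the 10 genes was not tested.

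**Figure D4:**
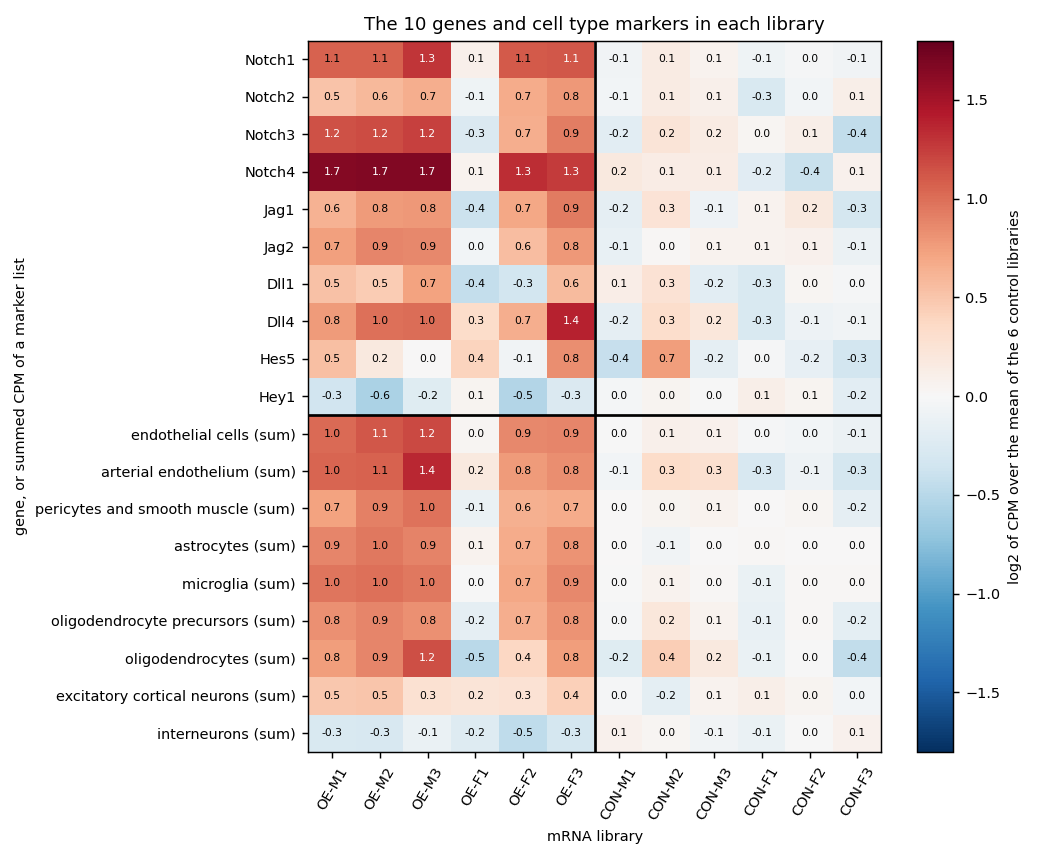
Log2 of the level over the mean of the 6 control libraries, in each of the 12 mRNA libraries (columns), for the 10 genes (top) and for the summed CPM of 9 cell type marker lists (bottom); red is above and blue below the control mean. The OE-F1 column is pale for the receptors and for vessel and glial markers other than oligodendrocytes, with the endothelial sum at 452 CPM. The other 5 Dnmt3l columns are red for the same rows of the plot, with endothelial sums of 804 to 1009 CPM. The oligodendrocyte sum of OE-F1, 3466 CPM, is below every control.

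Within groups several of the genes followed one another across libraries. After each group's mean was subtracted, log2 levels of Notch3 and Jag1 had r = 0.971 over the 12 libraries and those of Notch1 and Notch2 r = 0.926, while Hes5 and Notch1 had r = 0.055 and Hey1 and Notch4 r = -0.772. The points share libraries, OE-F1 among them. Over 14255 genes, the one most like Notch1 on this measure was Ube4a (r = 0.993), followed by Pecam1 (r = 0.992), with r = 0.932 and 0.955 when OE-F1 was left out. Pecam1 is an adhesion molecule of endothelium. Next came Surf4 (r = 0.99) and Nhsl1 (r = 0.983) for Notch2, Col5a2 (r = 0.997), a fibrillar collagen, and Enpp6 (r = 0.987) for Notch3, and Mdga1 and 4932438A13Rik (both r = 0.985) for Notch4. For the ligands they were Slc7a10 (r = 0.99), an amino acid transporter of astrocytes, for Jag1, Pcdhb11 (r = 0.988) and Wscd1 (r = 0.985) for Jag2, Drd2 (r = 0.957) and Adcy5 (r = 0.955) for Dll1, and Tmem144 (r = 0.956) and Fuz (r = 0.955) for Dll4. Drd2 is a dopamine receptor and Adcy5 an adenylyl cyclase, both abundant in striatum. Hes5 was most like Prickle3 (r = 0.96) and Ppp1r3d (r = 0.907), and Hey1 most like Hes6 (r = 0.958), a Hes family member, and Trmt61a (r = 0.957). Without OE-F1 the correlations of these genes lay between 0.853 (Mdga1) and 0.991 (Col5a2).

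Other RNAs of the same loci were few. Long non-coding transcripts overlapped 3 of the 10 genes, 9 transcripts in all, of which 3 could be tested in edgeR over 9233 transcripts. None was called (0.888% of all were). Gm17276, which runs antisense through Notch3, had 205 ± 34.2 CPM in Dnmt3l and 254 ± 24.4 CPM in control, on the scale of the long non-coding table (log2 change -0.31 ± 0.11, unadjusted p = 0.0169, edgeR adjusted p = 0.239). The sources used here do not say whether counting used strand, so reads of Notch3 and of Gm17276 cannot be told apart with certainty. The transcripts 0610009E02Rik and Gm13568 at Notch1 differed by 0.01 ± 0.29 and 0.09 ± 0.62 on the log2 scale, with edgeR adjusted p = 1 for the one and 0.982 for the other.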

How the data were processed

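RNA depleted of ribosomal RNA was sequenced in 12 libraries, 3 for each genotype and sex. The authors deposited expected counts and FPKM per Ensembl transcript (GRCm38) for mRNA, expected counts for assembled long non-coding transcripts, and for circular RNAs a score, per the file headers and values. HTSeq 0.6.1 and DESeq2 are among the tools listed, with HISAT2 2.0.1, bedtools 2.17.0 and cutadapt 1.9.1, per the submitters' processing notes, which give no role or order. Which tool counted, and whether by strand, is not stated there. Small RNA was not used here.

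Expected counts were summed per gene and rounded. Transcripts without a gene ID (0.533% to 0.601% of counts) were left out. Genes with 0.5 FPKM or more in at least 3 libraries (15786) were tested with edgeR 4.0.16 (TMM, quasi-likelihood, 4 group means, two-sided, Benjamini-Hochberg adjusted p under 0.05) in R 4.3.3. DESeq2 1.42.0, limma 3.58.1 on log2(FPKM + 0.1) and each library left out were alternatives. The Dnmt3l contrast, its difference between the sexes, the long non-coding test and transcript usage were checked on simulated data. The sex test in controls was not. Simulated sex differences were recovered in 8.96% of genes at a fold of 1.5 and in 84.8% at a fold of 4. At a fold of 4, 37.9% of long non-coding changes and 43% of usage changes were recovered, so small changes could be missed. The planned edgeR test of transcript usage gave mostly false calls on simulated data and was replaced, after that was seen, by limma on the log2 odds of transcript shares (transcripts with at least 10% of a gene's counts, genes with a mean of at least 20 counts). Long non-coding transcripts needed 5 counts in 3 libraries. The 1 circular RNA at these loci was not tested.

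The 10 genes, the pathway list and the marker lists were chosen with earlier results of these data known. Named were all 10 genes, up to 3 called pathway genes of smallest p per role group (every gene in groups of 4 or fewer), the 2 genes most like each member in deviations from group means (mean CPM of 1 or more), and transcripts with 10% or more of a gene's counts. Of the genes this rule names, 2 are not reported here.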

Additional observations from a re-analysis of the deposited data

Results flagged for a closer look

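Among 20 sets of 6 libraries (10 genes, 2 genotypes), 5 held a library set off from the rest by a gap large against the whole range (Dixon's criterion at the 95% level, which chance meets in about 1 in 20 sets). In 4 of them the library was OE-F1, low among the Dnmt3l libraries: Notch1 at 68.8 CPM, Notch2 at 49.9 CPM, Notch4 at 9.47 CPM and Jag1 at 6.09 CPM. OE-F1 had the highest Dnmt3l level, 45.7 CPM, and 25627317 counts, within the range of the other Dnmt3l libraries. In the fifth, CON-M2 was high among the controls for Hes5, at 5.76 CPM. The part of tissue makeup in these values was not tested.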

How the results depend on the processing

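The number of the 10 genes with a change above 0 was 9, the number with a sex difference in the Dnmt3l effect or in controls was 0, and the number of their transcripts called was 0 under every alternative run for each. Of the other pathway genes, 23 were higher, with 19 to 27 when 1 library was left out, 12 with limma on log2 FPKM and 9 without the 3 controls with liver transcripts. The number lower was 10, with 5 to 16 when 1 library was left out and 4 without those 3 controls. Among the pathway genes named in the text, limma on log2 FPKM lost the calls of Mib1, Neurl1b, Eogt, Adam17, Itch, Dtx3, Hes1 and Efnb2. The change of Dll3 turned to -0.11 there. Calls of pathway genes not named changed as well. The cause of these losses was not tested. With a replicate block, 21 were higher and 9 lower, and Efnb2 was no longer called (0.20). Libraries that share a number did not deviate together (r from -0.334 to 0.0774 over 18 pairs). With groups of 3 libraries this cannot settle whether the numbers pair the samples. With the block 1 transcript of all genes was called for usage, against 1418 without it. Transcripts with at least 5% of a gene's counts gave 1633, and the 10% minimum was chosen after seeing the data. Depth was lowest for Hes5 (73 to 176 counts a library), Dll4 (73 to 180) and Dll1 (89 to 210), and counting error bears most on these.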

Other observations

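A non-coding transcript assigned to Notch1 itself, on the strand of the gene, summed to 17 counts over the 6 Dnmt3l libraries and to 1 over the 6 controls, with 0 in OE-F1. The non-coding transcript TCONS_00326041 of Gm14207, on the strand opposite to Dll4, summed to 11 counts in Dnmt3l and to 1 in control. Both were too sparse to be tested. Of 10673 circular RNAs listed, 1 lay at any of the 10 loci, within Notch3 (chr17:32125663-32126949), with an authors' score of 10 in CON-M3 and 0 in the other 11 libraries. The target genes Hes3 and Hes7 held 0 to 7 and 3 to 7 counts per library in Dnmt3l and 2 to 8 and 1 to 19 in control, too few to be tested.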
